A study of Rattus norvegicus with 3 samples.

Results

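The Sox genes encode transcription factors that share a DNA-binding HMG box with Sry, the testis-determining factor. Sox proteins bend DNA at a short recognition site and act together with partner factors, such as Pou5f1 (Oct4) for Sox2. Group B1 members hold pluripotent and neural progenitor states, group C members act in neural and mesenchymal progenitors, group E members direct cartilage and neural crest lineages, and group F members act in endoderm and in blood vessels. Here 8 members of 4 groups were followed, namely Sox2 and Sox3 (B1), Sox4 and Sox11 (C), Sox9 and Sox10 (E) and Sox17 and Sox18 (F).

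Their transcripts were compared between rat iPS M13, a line of induced pluripotent stem cells (adult cells turned back to an embryo-like state), and an RNA mix of adult cells. The iPS M13 cells were untreated and were kept on irradiated mouse embryonic fibroblast feeders, and their RNA carried the dye Cy3 on each of 3 two-colour rat arrays. The same adult RNA, mix1, made from cultured bone marrow cells and primary fibroblasts of the ear, carried Cy5 on all 3. Dyes were not swapped, so dye and cell type cannot be told apart, and mix1 is 1 control RNA whose own spread does not enter the test. Nothing in the labels says that the 3 iPS samples were grown apart, and p-values then cover the spread among the samples alone, possibly technical. The labels do not name the genes used to derive the line either, so an introduced Sox2 copy and the cells' own gene cannot be told apart.

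Taken by the gene name in the array files, 13 of 41012 rat probes belonged to 6 of these genes. Sox2 and Sox3 stood there under placeholder names and were found through the RefSeq gene table, which added 3 probes. All 16 probes of the 8 genes are described, of which Sox9 had 4, Sox4 had 3, Sox3, Sox17 and Sox18 had 2 each, and Sox2, Sox10 and Sox11 had 1 each. Probes of a gene are numbered from its 5′ end, and are separate stretches of it, not replicates.

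The probes on which the results turn are given first, 5′ to 3′ on the gene's strand and as the array files hold them. They show which stretch of each transcript was read, since several genes gave a different result at different stretches. Positions are on build rn3, and no exon annotation of that build was used here. Probe 1 of Sox2 lies at chr2:120914687-120914746 (plus strand). Those of Sox3 lie at chrX:146583867-146583926 and, for the 30 bases shown of probe 2, at chrX:146583234-146583263 (minus strand). Those of Sox4 lie at chr17:42176376-42176435 and chr17:42177526-42177585 (plus strand), and that of Sox11 at chr6:45145224-45145283 (minus strand).
Sox2 probe 1: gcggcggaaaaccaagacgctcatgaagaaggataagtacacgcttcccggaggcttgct
Sox3 probe 1: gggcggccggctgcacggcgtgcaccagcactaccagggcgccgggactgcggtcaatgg
Sox3 probe 2, first 30 bases: tttgtgatttctgcagtgatctatttgcta
Sox4 probe 1: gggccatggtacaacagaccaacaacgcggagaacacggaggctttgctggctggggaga
Sox4 probe 2: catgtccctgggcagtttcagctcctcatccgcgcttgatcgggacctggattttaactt
Sox11 probe 1: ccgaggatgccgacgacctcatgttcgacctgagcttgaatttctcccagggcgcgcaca

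The group E probes lie at chr10:102408192-102408251 and chr10:102408594-102408653 for Sox9 probes 1 and 2. The 30 bases shown of Sox9 probes 3 and 4 lie at chr10:102409902-102409931 and chr10:102410155-102410184 (all on the plus strand), and those of Sox10 at chr7:117173081-117173110 (minus strand). Capitals mark the first codon in Sox9 probe 1 and the letters AATAAA in Sox10, the usual signal for cleavage and polyadenylation. Of all rat probes, 4.26% held AATAAA on the strand as printed and 7.43% on either strand; among the 16 Sox probes only that of Sox10 did.
Sox9 probe 1: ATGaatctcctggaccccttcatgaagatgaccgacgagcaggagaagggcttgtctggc
Sox9 probe 2: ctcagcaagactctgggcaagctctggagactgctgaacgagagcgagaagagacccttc
Sox9 probe 3, first 30 bases: agagagactttaagacattatctgagctca
Sox9 probe 4, first 30 bases: tcattaccattttgaggggatttatacata
Sox10 probe 1, 30 bases: cagcgatatcttAATAAAgtacgtagctct

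Sox2 and the 3′ probe of Sox3 were higher in iPS M13 than in mix1, and the 3′ probes of Sox9 were lower. Sox4 and Sox11 were read in both RNAs, with log2 ratios of -0.66 to -1.20 at the Sox4 probes and 0.90 at Sox11. The sign at Sox4 probe 1 depended on the scaling. Of the 16 Sox probes, 10 from 6 genes could be tested, being well above background in the same RNA on all 3 arrays. Of these, 2 were called higher in iPS M13, 4 lower, and 4 were not called. Among all 24177 probes tested, 18.5% were called higher and 25.1% lower. A call needed an adjusted p under 0.05 in limma and at least a 2-fold difference, a log2 ratio of 1. All 10 Sox probes passed the adjusted p alone, as 23209 of all probes did, so the fold decided the calls. Of the 10 probes, 5 were above background on all arrays in both RNAs and 5 in 1 RNA only on all arrays. A probe that passed through 1 RNA was kept for its signal in that RNA, so the filter favoured 1 direction. These counts describe the probes and support nothing further.

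The arrays resembled each other closely: log2 ratios correlated at 0.997 to 0.998 between arrays across probes, which are not independent replicates. The median SD of a log2 ratio was 0.03. Negative control spots had medians of 76.0 to 77.4 scanner units in the iPS M13 dye and 60.9 to 63.7 in that of mix1, with 95th percentiles of up to 144 and 108. Over all rat spots the median was 272 to 291 in the iPS M13 dye and 228 to 254 in that of mix1. Signals before normalization are thus given as read, and their order between dyes alone gives no direction. Of the lists of marker genes, 5 of 6 tested pluripotent genes were called higher in iPS M13, while 8 of 8 fibroblast and 7 of 7 macrophage genes were called lower. Some of these were kept through 1 RNA only, where the filter favoured 1 direction. Of those read in both RNAs on all arrays, 3 of 4 pluripotent genes were called higher. In the same way 6 of 6 fibroblast and 4 of 4 macrophage genes were called lower. Among all genes, each taken by its brightest tested probe, 18.9% were called higher and 25.5% lower. Nanog, Zfp42 and Tdgf1, further markers of pluripotent cells, had no probe under their names.

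**Figure D1:**
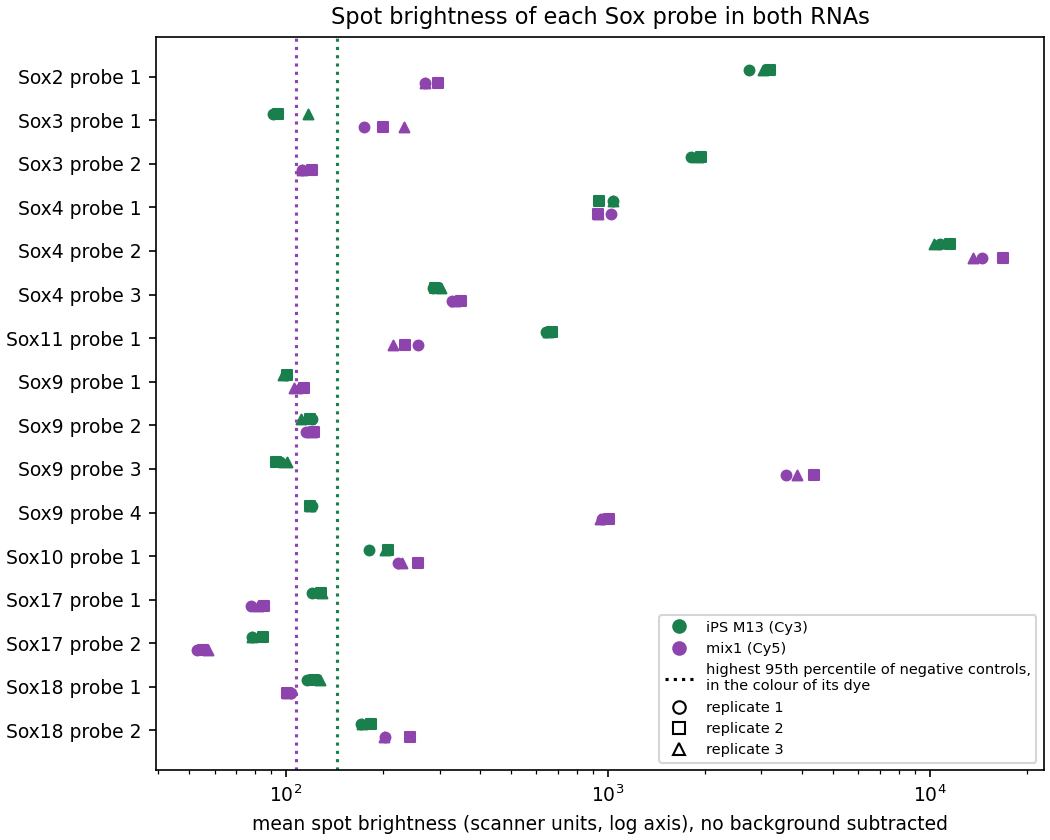
Mean spot brightness of the 16 Sox probes (scanner units on a log axis, no background subtracted) in iPS M13 (green) and mix1 (purple), 1 symbol per array, with the highest 95th percentile of the negative controls in each dye as dotted lines. Sox9 probe 3 reached 3586 to 4367 in mix1 while its iPS M13 spots sat at 92.8 to 101, below the dotted line for that dye. Brightness can be compared between the dyes of a probe only after normalization, and not between probes.

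Sox2, the group B1 factor that works with Pou5f1 in pluripotent cells, was higher in iPS M13. Its spots had a mean signal of 2743, 3198 and 3030 in iPS M13 on replicates 1, 2 and 3. In mix1 they had 270.2, 297 and 271. Before normalization every iPS M13 spot was thus brighter than every mix1 spot, and both RNAs were above background on all 3 arrays. The log2 ratios after normalization were 2.60, 2.57 and 2.69, a mean of 2.62 ± 0.07 (SD, n = 3), or 6.15-fold (limma, adjusted p = 2.58e-06). The call was kept in every setting that was run.

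Sox3, the group B1 gene on the X chromosome that overlaps with Sox2 in function in neural progenitors, gave opposite results at its 2 probes. Probe 2, which starts 663 bases downstream of probe 1, had iPS M13 signals of 1812, 1945 and 1907. Its mix1 signals were 112, 121 and 112, which were not well above background on any array. Its log2 ratios were 3.42, 2.98 and 3.44, a mean of 3.28 ± 0.26 (SD, n = 3; limma, adjusted p = 3.94e-05), and with mix1 below background the difference is at least 9.45-fold. Here the spot signals did not overlap before normalization, and the log2 ratio was positive on each array.

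Sox3 probe 1 was dim in both dyes. Its mix1 signals were 175, 200 and 233, well above background on all 3 arrays. Its iPS M13 signals were 91.0, 94.6 and 117, not well above background on any. On this probe mix1 was thus the RNA that was read. The log2 ratios of -1.26, -1.13 and -1.42 gave a mean of -1.27 ± 0.15 (SD, n = 3; limma, adjusted p = 1.25e-04), at least 1.64-fold lower in iPS M13. The difference between the probes, taken within each array, was 4.55 ± 0.40 on the log2 scale (SD, n = 3; limma over all probe pairs, adjusted p = 3.13e-05). Probe 1 had a GC content of 75% and probe 2 of 43.3%. With the trend of log2 ratios with GC content taken off, probe 1 was at -0.22 and no longer called, and probe 2 kept its call.

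How often probes of a gene disagree sets the scale for that pair. Of 4231 pairs of tested probes from 2791 genes, 621 (14.7%) differed by at least 2-fold at an adjusted p under 0.05. The median size of a difference was 0.38 on the log2 scale and the 95th percentile 1.79. The Sox genes had 5 such pairs in 3 genes, of which 2 were called, Sox3 and the 3′ pair of Sox9. Both of these pairs include RNAs below background, where the ratio has no measured lower side.

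**Figure D2:**
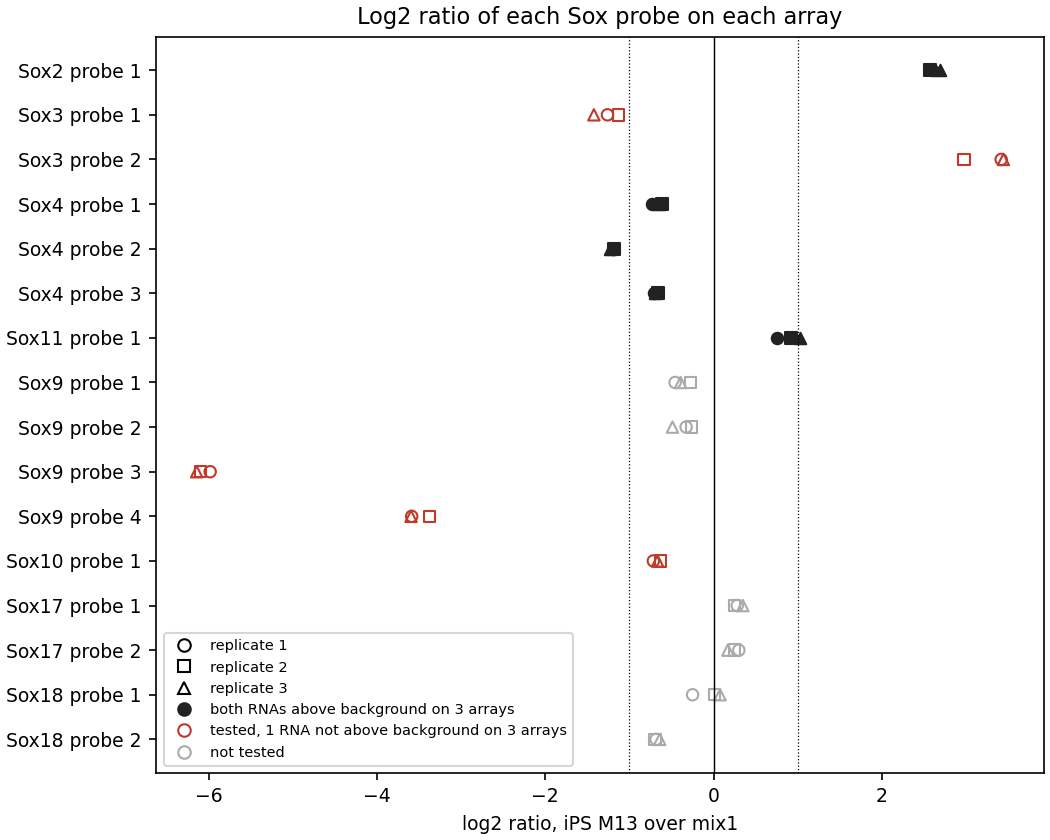
Log2 ratio of iPS M13 over mix1 for each of the 16 Sox probes on each of the 3 arrays, with dotted lines at the 2-fold threshold. Filled symbols are the 5 probes read in both RNAs on all arrays, red open symbols the 5 tested probes with 1 RNA not above background on all arrays, and grey symbols the 6 probes not tested. The Sox3 probes lie on opposite sides of 0, at -1.27 and 3.28.

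Sox4, a group C factor of progenitor and lymphoid cells, had 3 probes that were read in both RNAs on all arrays, all with negative log2 ratios. At probe 1 the signals were 1040, 940 and 1035 in iPS M13. They were 1020, 929 and 928 in mix1, so before normalization the RNAs were nearly even. After it the log2 ratios were -0.73, -0.61 and -0.64, a mean of -0.66 ± 0.06 (SD, n = 3), which was not called. The sign of that value rests on the scaling: it was 0.065 with median centring, 0.0078 with no normalization and 0.079 with the GC trend taken off.

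Probe 2 of Sox4, 1150 bases downstream of probe 1, was bright in both RNAs. Its signals were 10740, 11564 and 10333 in iPS M13. In mix1 they were 14546, 16930 and 13632, above the highest iPS M13 value on each array before normalization. The log2 ratios of -1.20, -1.19 and -1.23 gave a mean of -1.20 ± 0.02 (SD, n = 3), 2.30-fold lower in iPS M13 (limma, adjusted p = 3.01e-06). It was the only called one of the 3 Sox4 probes. The call was lost with median centring (-0.41), no normalization (-0.47), the software's processed signals or the authors' value table (-0.94 each) and the GC trend taken off (-0.67), with the sign kept.

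Probe 3 of Sox4 starts 1496 bases downstream of probe 1. Its signals were 285, 290.1 and 304 in iPS M13 and 327, 350 and 335 in mix1. Before normalization mix1 was thus the brighter on each array, by a small margin. Its mean log2 ratio of -0.69 ± 0.02 (SD, n = 3) was not called. The size of that value also rests on the scaling: it was -0.32 with median centring, -0.37 with no normalization and -0.045 with the GC trend taken off. Probes 1 and 3 differed by only 0.03 ± 0.04 on the log2 scale (limma, adjusted p = 0.357). Probe 2 stood apart from them, by 0.54 ± 0.06 from probe 1 (adjusted p = 1.16e-04) and 0.52 ± 0.02 from probe 3 (adjusted p = 3.73e-05). These are larger than the spread between arrays and less than 2-fold, and not far above the median difference of 0.38 between probes of a gene.

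Sox11, the other group C member and a factor of immature neurons, was read in both RNAs on all arrays. Its signals were 643, 672 and 653 in iPS M13. They were 258, 235 and 215 in mix1, so the spot signals did not overlap before normalization. The log2 ratios of 0.76, 0.92 and 1.02 gave a mean of 0.90 ± 0.13 (SD, n = 3), or 1.87-fold (limma, adjusted p = 2.84e-04), just under the threshold and not called. It was called higher with a normexp offset of 10 (1.01), median centring (1.36), no normalization (1.30), the processed signals or the authors' table (1.53 each) and the GC trend taken off (1.64). No setting that was run gave it a negative ratio.

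Around these genes the array holds probes with no gene name, which the files name by an expressed sequence tag or, in 1 case, by an Ensembl transcript. Within 10000 bases of a Sox probe there were 14 of them, near 5 of the genes. They are given as neighbours, since nothing used here ties them to the Sox transcripts. Of the 6 near Sox11, 4 lay on its strand downstream of its probe, and all 4 were called higher in iPS M13. BE107070, 849 bases past the Sox11 probe, had signals of 12288, 16932 and 15717 in iPS M13 and 442, 631 and 556 in mix1. Its log2 ratio was 3.93 ± 0.03 (SD, n = 3; limma, adjusted p = 6.36e-07). BF554576, 1425 bases past, had 3.73 ± 0.04, and AI103122, 2923 bases past, had 4.52 ± 0.02 (SD, n = 3). These 3 were read in both RNAs on all arrays, and their ratios lay far above the 0.90 of the named Sox11 probe. AI547978, 4621 bases past, was below background in mix1 and at least 3.01-fold higher in iPS M13. The Sox11 probe has a GC content of 60%, against 35% to 36.7% for these 4. With the GC trend taken off the Sox11 probe was at 1.64, and the part of GC content in this gap was not tested.

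On the opposite strand near Sox11, BG376545 was at least 1.79-fold higher in iPS M13, a call that was lost with the GC trend taken off (0.91), and AI138071 was not tested. The 3 near Sox4 all lay on its opposite strand and were not called. BE110111 was at 0.49 ± 0.07, AI013050 at -0.27 ± 0.04 and BF560932 at -0.19 ± 0.03 (SD, n = 3), and each of these signs turned in at least 1 other setting. BE110111 was called higher with the processed signals and with the authors' table (1.15 each). Signal on the strand opposite to a gene was not assigned to it. The 1 neighbour each of Sox2 and Sox18 was not tested.

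**Figure D3:**
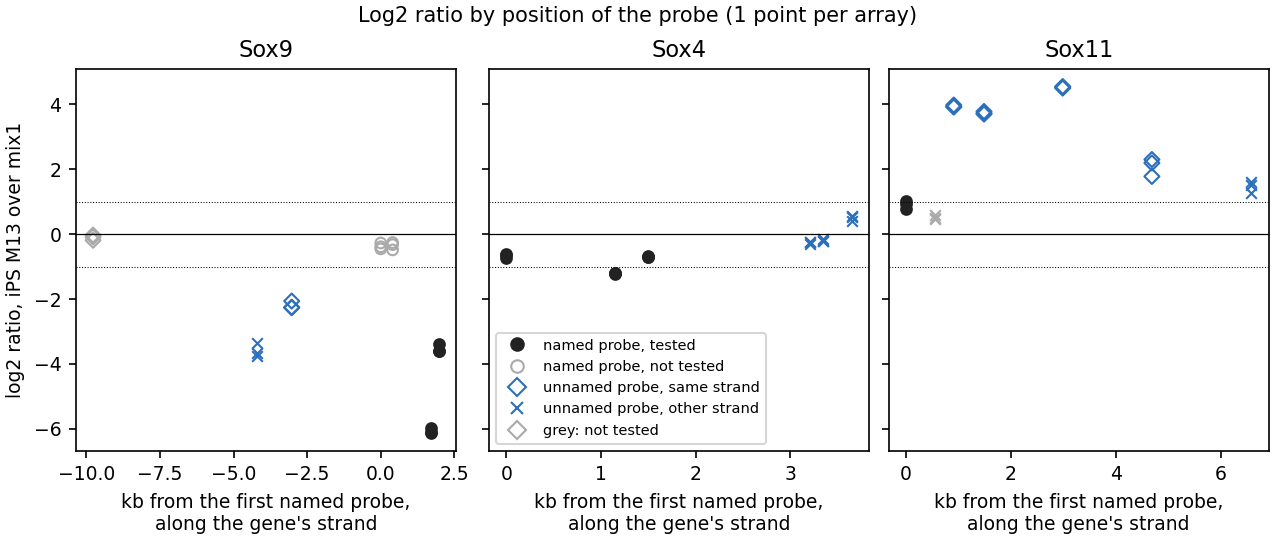
Log2 ratio of iPS M13 over mix1 on each of the 3 arrays (vertical axis) against the distance in kb from the first named probe along the gene's strand, for Sox9, Sox4 and Sox11. Circles are named probes, diamonds unnamed probes on the gene's strand and crosses unnamed probes on the other strand, with grey symbols not tested. The named Sox11 probe lies at 0.76 to 1.02 and the 4 diamonds downstream of it all above the upper dotted line.

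Sox9, the group E factor that switches on cartilage genes such as the collagen Col2a1, was read only by its 3′ probes and only in mix1. At probe 3, which starts 1710 bases downstream of probe 1, the mix1 signals were 3586, 4367 and 3855. The iPS M13 signals of 95.7, 92.8 and 101 were at the level of the negative controls. The log2 ratios were -5.98, -6.10 and -6.14, a mean of -6.07 ± 0.08 (SD, n = 3; limma, adjusted p = 8.79e-07). With iPS M13 below background on all arrays, Sox9 probe 3 was at least 35.6-fold lower in iPS M13.

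Probe 4 of Sox9 starts 1963 bases downstream of probe 1 and has a GC content of 23.3%. Its signals were 121, 119 and 118 in iPS M13, not well above background, and 956, 1005 and 944 in mix1. The log2 ratios of -3.59, -3.37 and -3.59 gave a mean of -3.52 ± 0.13 (SD, n = 3; limma, adjusted p = 4.81e-06), at least 8.32-fold lower in iPS M13. Both 3′ probes thus put Sox9 lower and kept their calls in every setting that tested them; the filter on both RNAs left them out. They differed by 2.55 ± 0.17 on the log2 scale (adjusted p = 1.65e-05), with no measured iPS M13 side at either.

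The 5′ probes of Sox9 read neither RNA. Probe 1, which starts at the first codon, had signals of 99.9, 100.4 and 98.1 in iPS M13 and 111, 114 and 106 in mix1. Probe 2, 402 bases downstream, had 120.1, 119 and 111 in iPS M13 and 116, 122 and 120.1 in mix1. None was well above background on any array. In mix1 the same gene therefore appears read or not read depending on the probe, and a value for Sox9 that averages all 4 would have no defined meaning. Upstream of Sox9, AI501053 on its strand was at least 3.16-fold lower in iPS M13 and AA955408 on the other strand at least 7.04-fold lower, both read in mix1 only. The third unnamed probe upstream of Sox9, that of the Ensembl transcript on its strand, read neither RNA on any array and was not tested.

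Sox10, the group E factor of neural crest, Schwann and pigment cells, was near the limit of detection. Its signals were 181, 207 and 203 in iPS M13, well above background on 2 of 3 arrays. In mix1 they were 222, 257 and 230.0, above background on all 3. The mean log2 ratio of -0.67 ± 0.04 (SD, n = 3; limma, adjusted p = 3.65e-05) was under 2-fold and not called. Its sign was negative in every setting that was run.

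Neither group F gene could be tested. Sox17, a factor of definitive and primitive endoderm, was below background in both RNAs on all arrays at both probes. Its probe 1 had signals of 121, 129 and 129 in iPS M13 and 77.8, 85.2 and 81.8 in mix1. Sox18, a factor of blood and lymph vessels, was below background in both RNAs at probe 1. Its probe 2 had signals of 171, 183 and 173 in iPS M13, above background on 1 array. In mix1 it had 204, 243 and 202, above background on 2. The log2 ratios of Sox18 probe 2 were -0.68, -0.70 and -0.64, and the filter left them untested. No difference was thus tested in either gene, which does not show that the transcripts were absent.

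An order of log2 ratios has a meaning only for probes read in both RNAs. Among the 5 of these, Sox2 was highest, followed by Sox11, then Sox4 probes 1 and 3, then Sox4 probe 2. Sox4 probes 1 and 3 overlapped between arrays and cannot be ranked, and Sox10, read in iPS M13 on 2 of 3 arrays, overlapped with both. Both Sox3 probes and the 3′ probes of Sox9 have bounds only and hold no place in that order. The median over all 24177 tested probes was -0.02.

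The sign of a small ratio rests on how the arrays were scaled. Over all probes, loess gave 4472 higher and 6059 lower, median centring 8797 and 4187, no normalization 8318 and 4349, and the software's processed signals 7483 and 5662. The median of all probes rose from -0.02 to 0.58, 0.52 and 0.29 in these settings. The Sox probes went from 2 higher and 4 lower to 3 higher and 3 lower in each of them, through the call of Sox11 and the loss of Sox4 probe 2. Sox2, Sox3 probe 2 and the 3′ probes of Sox9 kept their calls in all of them.

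**Figure D4:**
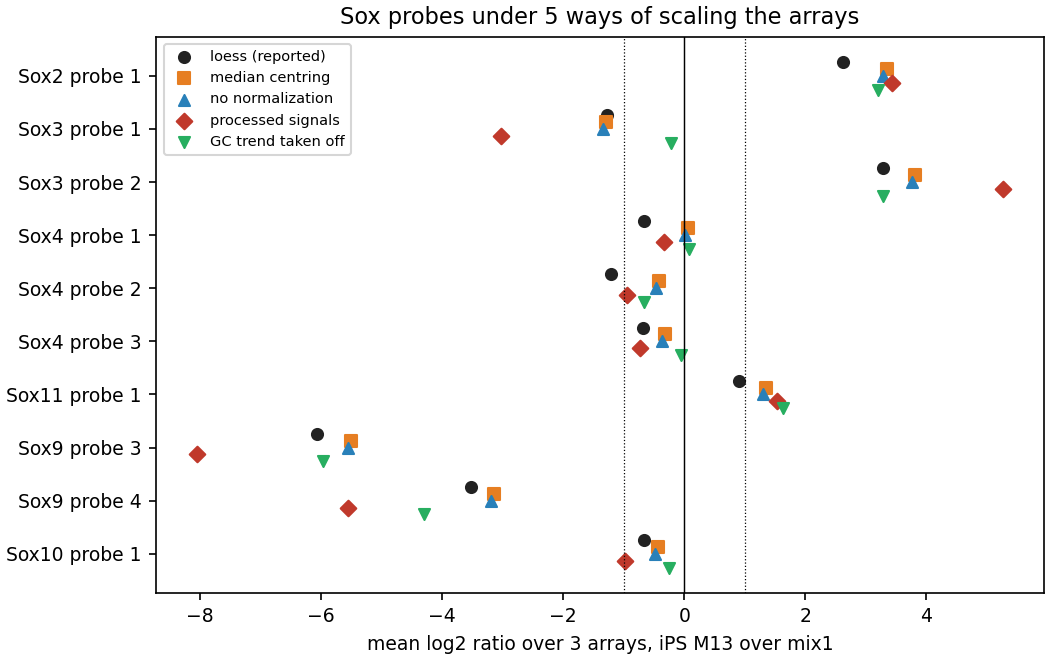
Mean log2 ratio over the 3 arrays for the 10 tested Sox probes (horizontal axis, iPS M13 over mix1) under 5 ways of scaling, with dotted lines at the 2-fold threshold. Sox4 probe 1 crosses 0, from -0.66 to 0.079, and Sox11 moves from 0.90 to as far as 1.64, while Sox2 and both 3′ probes of Sox9 stay beyond the dotted lines.

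The other 10 Sox genes with a probe had 14 probes, of which 4 could be tested. Sox5, a group D partner of Sox9 in cartilage that is also made in neurons, was higher at 2.37 ± 0.07 (SD, n = 3; limma, adjusted p = 3.31e-06), read in both RNAs on all arrays; its other probe was not tested. Sox14, a neural group B2 gene, was at least 6.18-fold lower in iPS M13. One of 3 Sox30 probes was tested, and was lower at -1.37 ± 0.05 (SD, n = 3), a call that median centring ended (-0.9975). Sox12, the third group C gene, was not called at 0.49 ± 0.02 (SD, n = 3), and was called higher with the processed signals (1.26) and with the GC trend taken off (1.08). Probes of Sox6, Sox7, Sox8, Sox13, Sox15 and Sox21 were below the filter, and Sox1 and Sry had no probe under their names. An unnamed probe whose description mentions SOX1 was not called at -0.57 ± 0.05 (SD, n = 3) and was not assigned to Sox1. It was read in both RNAs on all arrays.

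Counts for the following gene lists include genes tested through 1 RNA only, where the filter favoured 1 direction. The counts describe the lists without supporting a direction. Genes that work with the group B1 factors or are known targets in the early embryo did not move one way. Of 9 tested, 3 were called higher, 2 lower and 4 neither, with a median log2 ratio of 0.78 against -0.02 over all genes. Pou5f1, the partner of Sox2, was at least 2.48-fold higher in iPS M13, and Pou3f2, its neural counterpart, at least 3.26-fold. Klf4, a factor of both pluripotent and differentiated cells, was lower at -6.89 ± 0.05, and Spp1 (osteopontin), a secreted protein with a Sox2 and Pou5f1 site, at -5.12 ± 0.03 (SD, n = 3).

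Neural genes under group B1 or C control were mostly higher among those read in both RNAs on all arrays, 6 of 7, with 1 not called. With genes read on all arrays in 1 RNA only, where the filter favoured 1 direction, 10 of 12 were called higher, 1 lower and 1 neither. The median was 1.42, or 1.34 with genes below background in 1 RNA at their bound. Tead2, a factor of the Hippo pathway and a target of group C, was higher at 2.61 ± 0.00019 (SD, n = 3). Stmn2, a microtubule regulator of growing neurites, was at 2.58 ± 0.03, and Ptprz1, a receptor phosphatase of neural progenitors, at 1.80 ± 0.09 (SD, n = 3). Pax6, which acts with Sox2 in the eye, was at least 12.6-fold higher. Among 7 tested neural markers, all of which are also in that list, 6 were called higher. Only 3 of the 7 were read in both RNAs on all arrays, and 2 of these were called higher. The summed level of the 7 ran from 83915 to 91807 in iPS M13 and from 26059 to 28117 in mix1. The part of neural cells in the Sox11 and Sox3 values was not tested.

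Cartilage genes under Sox9 were lower in part: of 11 tested, 0 were called higher, 8 lower and 3 neither, with a median of -3.39, or -2.59 at bounds. Of the 7 read in both RNAs on all arrays, 4 were called lower. The growth factor-like Ccn2 was lowest at -8.48 ± 0.06, followed by the collagen Col11a1 at -7.06 ± 0.24 and the matrix protein Comp at -5.74 ± 0.05 (SD, n = 3). Acan, the main proteoglycan of cartilage, was at least 6.02-fold lower. Ccn2, Col11a1 and Comp are also made by fibroblasts, a component of mix1. The cartilage collagen Col2a1 was read in both RNAs and was not called, at -0.09 ± 0.09 (SD, n = 3), and Matn1, Matn3, Hapln1 and Cnmd, further cartilage genes, were below the filter. Summed over the 6 tested chondrocyte markers, levels ran from 1511 to 1529 in iPS M13 and from 24855 to 24886 in mix1; their part in the Sox9 values was not tested.

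Neural crest genes under Sox10 were mixed, with 1 called higher, 3 lower and 4 neither of 8 tested and a median of -0.44. Pmp22, a myelin protein that fibroblasts also make, was lower at -7.91 ± 0.09, and Egr2, a factor of myelination and of myeloid cells, at -3.72 ± 0.09 (SD, n = 3). Ednrb, the endothelin receptor, was at least 385-fold lower. The Schwann and pigment cell markers S100b, Erbb3, Tyr, Dct and Foxd3 were below the filter.

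Vessel genes linked to group F were 2 higher, 2 lower and 3 neither of 7 tested, with a median of -0.39. Egfl7, a secreted vessel protein, was lower at -3.19 ± 0.05 (SD, n = 3), and the adhesion molecule Vcam1 at least 31.7-fold lower. Tek, the angiopoietin receptor, was at least 3.46-fold higher in iPS M13, and Rasip1, a regulator of vessel tube formation, at least 1.94-fold, a call lost without replicate 1 (0.99) and in limma's test against a 2-fold difference. Kdr, a receptor of vascular growth factor, was read in both RNAs and was not called at -0.86 ± 0.10 (SD, n = 3). The other endothelial markers Pecam1, Cdh5, Tie1, Vwf and Emcn were below the filter. Endoderm genes linked to group F were 2 higher, 8 lower and 1 neither of 11, with a median of -2.49, or -2.40 at bounds. Their largest differences were in matrix genes that fibroblasts share, Sparc at -7.59 ± 0.10 and the collagen Col4a1 at -6.91 ± 0.09 (SD, n = 3), and 5 of the 6 genes read in both RNAs on all arrays were called lower. The endoderm factor Gata6 was at least 5.27-fold lower in iPS M13. Higher were Lama1, a laminin chain, at least 3.44-fold, and Afp, the fetal serum protein, at 3.83 ± 0.18 (SD, n = 3), read in mix1 on 2 of 3 arrays. The endoderm factors Foxa1, Foxa2 and Gata4 were below the filter.

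Genes of the beta-catenin pathway, which Sox proteins modulate, gave 3 higher, 3 lower and 7 neither of 13, with a median of -0.36. Tle1, a corepressor, was higher at 1.05 ± 0.02, and Tle5, its short relative, lower at -1.39 ± 0.01 (SD, n = 3), a call lost with median centring (-0.57) and with no normalization (-0.62). Of 16 tested genes for other HMG box proteins, 4 were called higher, 1 lower and 11 neither, with a median of 0.39. The chromatin proteins Hmgb2 at 2.33 ± 0.0042 and Hmgb3 at 1.67 ± 0.03 and the mitochondrial factor Tfam at 1.63 ± 0.03 were higher (SD, n = 3). Hbp1, a repressor of cell cycle genes, was lower at -1.67 ± 0.04 (SD, n = 3), and lost its call with median centring (-0.83) and with no normalization (-0.89). The medians of these last lists, and those of the neural crest and vessel lists, are smaller than the 0.60 by which median centring moves all probes.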

How the data were processed

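RNA of 3 iPS M13 samples was compared with 1 adult RNA, mix1, on 3 two-colour Agilent rat arrays on 1 slide and in 1 scan, per the file headers. The deposited spot intensities are pixel brightness with local background, not subtracted. The submitters' processing notes name Agilent Feature Extraction. Per the file headers, its log10 ratios are Cy5 over Cy3 of the intensities it processed. The authors' value table was matched to those ratios and taken as log2 of Cy3 over Cy5, with its centring unknown; its column medians were -0.0413, -0.0282 and -0.0286.

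Mean signals were corrected by normexp (offset 50) and normalized by loess in limma 3.58.1 under R 4.3.3, leaving out outlier spots and averaging spots of a probe. Probes were tested if well above background in the same RNA on all 3 arrays. Log2 ratios of iPS M13 over mix1 were tested against 0 by lmFit and eBayes, with Benjamini-Hochberg adjustment over all probes; differences between probes of a gene were tested the same way over all pairs from genes with 2 to 6 tested probes. The fit was tested on simulated data. The exact sign-flip test (two-sided) has 0.25 as its smallest p here and was not used. "At least N-fold" sets the mean of the bright RNA against a floor for the dim one: on each array, the dim spot itself or the dimmest probe that counts as well above background, whichever is higher (log2 levels after loess and Aquantile). Summed levels of a list are on that scale, unlogged. Other genes were represented by their brightest tested probe.

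Of 41012 probes, 21300 were named through a RefSeq table (assembly GRCr8, used for names only) and 19712 kept the file's name. All Sox probes were reported. From each gene list at most 4 genes were named, those with the largest called ratio among genes read in both RNAs on all arrays, besides genes at a bound and markers. Col2a1, Afp and genes below the filter or with no probe, and neighbouring probes, were named outside that rule, after their values were seen. The members and lists were chosen with earlier results of these data known. Some genes of the lists are not reported here by name.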

Additional observations from a re-analysis of the deposited data

How the results depend on the processing

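Precision is limited by 3 arrays, by 1 control RNA and by the missing dye swap, and dim probes have only bounds. The calls of Sox2, Sox3 probe 2 and the 3′ probes of Sox9 were kept in every setting that tested them, with replicates left out too. Over all probes, 7483 were called higher with the processed signals, 7482 with the authors' table, 8797 with median centring and 8318 with no normalization. Requiring both RNAs above background left 5 Sox probes to test, of which 1 was called higher and 1 lower. Of all 18845 probes tested in that setting, 3073 were called higher and 4051 lower. Taking off the GC trend gave 3 higher and 2 lower of 10 Sox probes, against 4117 and 5801 of all 24177. Pairs that differed numbered 1046 of 6026 tested with no filter and 304 of 3422 with both RNAs above background. Sox3 probe 1 was at -0.22 with the GC trend taken off. Sox4 probe 1 turned to 0.065 (median centring), 0.0078 (no normalization) and 0.079 (GC trend off). Sox4 probe 2 lost its call at -0.94 (processed signals and authors' table), -0.41 (median centring), -0.47 (no normalization) and -0.67 (GC trend off), and the mean of the Sox4 probes, -0.85, was not called. Sox11 was called at 1.01 (normexp offset 10), 1.53 (processed signals and authors' table), 1.36 (median centring), 1.30 (no normalization) and 1.64 (GC trend off). Among neighbours of Sox4, BE110111 turned to -0.14 (GC trend off) and was called higher at 1.15 (processed signals and authors' table). AI013050 turned to 0.20 (median centring) and 0.14 (no normalization). BF560932 turned to 0.21 (processed signals and authors' table), 0.57 (median centring) and 0.51 (no normalization). The cause of these changes was not tested. The ratio of iPS M13 to mix1 was taken within each array. No further pairing of samples was possible because the labels give 1 group, with each iPS M13 sample set against the same mix1.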
